A study of Mus musculus with 2 samples.

Results

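The genes described here encode the enzymes and membrane proteins of the lysosome and the proton pump that acidifies it. They were chosen by name, as 52 mouse genes for cathepsins, glycosidases, sulfatases, lipid hydrolases, lysosomal membrane proteins, the regulators Tfeb and Tfe3, and the subunits of the vacuolar ATPase (V-ATPase). All 52 had at least 20 counts over both libraries, the lowest sum being 77 for Ctsk, and they stand among 14433 genes that passed the same floor. RNA came from liver of C57BL/6 mice aged 8 weeks that were kept on chow. Both genotypes carried floxed Mettl3 alleles, Mettl3 encoding the methyltransferase that places m6A on RNA. The HKO mice also carried Alb-Cre, which is driven by the albumin promoter, and the authors describe the deletion as specific to hepatocytes. Whether every other liver cell type kept the gene cannot be seen from these libraries. RNA of 4 mice was pooled per genotype and each pool gave 1 library. There is therefore no replicate check, no difference below can be assigned to genotype, and mice within a pool cannot be told apart.

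The library labelled flox held 21457504 counts in named genes and the library labelled HKO 18438807. Mettl3 itself had 156 and 220 counts, a log2 ratio of 0.45 (0.15 to 0.75), so the library labelled HKO did not hold less of it. Counts from exons outside the floxed part check nothing about the deletion, and the libraries are called by their labels for this reason. Throughout, a pair of values is given in the order flox, HKO. Ratios are HKO over flox on the TMM scale, a scaling that sets most genes level, and brackets give the 95% interval from counting error alone. CPM are counts divided by library size on that same scale. A gene is said to be past 1.5-fold or past 2-fold when its ratio reached that size and its interval excluded equality.

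Lysosomes break down proteins, glycans, lipids and whole organelles that reach them by endocytosis, phagocytosis or autophagy. Their hydrolases work at acidic pH, which the V-ATPase maintains by coupling ATP hydrolysis in its cytosolic V1 sector to proton transport through its membrane V0 sector. Most soluble hydrolases reach the lysosome by a mannose 6-phosphate tag, and loss of single enzymes causes the lysosomal storage diseases. In liver, hepatocytes use lysosomes to process lipoproteins, iron and autophagic cargo, while Kupffer cells, the resident macrophages, are rich in lysosomes for digestion of what they engulf.

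None of the 52 genes was past 2-fold in either direction, against 10.4% of all genes tested (5.74% higher and 4.66% lower). Past 1.5-fold there were 4 genes, all higher in the library labelled HKO, against 13.0% of all genes higher, 10.3% lower and 23.3% in either direction. These were the lipid enzymes Smpd1 and Lipa and the glycosidases Hexa and Gla. With total counts in place of TMM factors every log2 ratio moved up by 0.27, and 17 of the 52 were then past 1.5-fold and 2 past 2-fold, all higher, against 24.8% and 10.4% of all genes higher at those limits. The members are mostly abundant, and abundant genes differed less. Among the 5313 genes with at least 1000 counts, 4.29% were past 2-fold and 17.5% past 1.5-fold.

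The median log2 ratio of the 52 genes was 0.16, beside 0.01 for all genes tested. Over genes with at least 1000 counts the members had a median of 0.11, beside −0.08 for all such genes. The members spread from −0.51 for Idua to 0.90 for Smpd1, with quartiles of −0.13 and 0.42. The ratio was above equality for 35 of the 52, beside 7328 of 14433 genes in all. By counting error alone, 25 members had an interval above equality and 13 below it, against 28.3% and 27.7% of all genes, or 56.0% in either direction. With total counts these became 38 and 1, against 49.2% and 13.2%, and Idua, Scarb2 and Ctsf were the 3 members left below equality. Summed over the members, counts were 129848 and 155416, or 0.605% and 0.843% of each library. The exact binomial intervals of these shares were 0.602 to 0.608 and 0.839 to 0.847. A share of the library amounts to scaling by total counts, which gives higher ratios here than TMM. On the TMM scale the summed log2 ratio was 0.21.

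**Figure D1:**
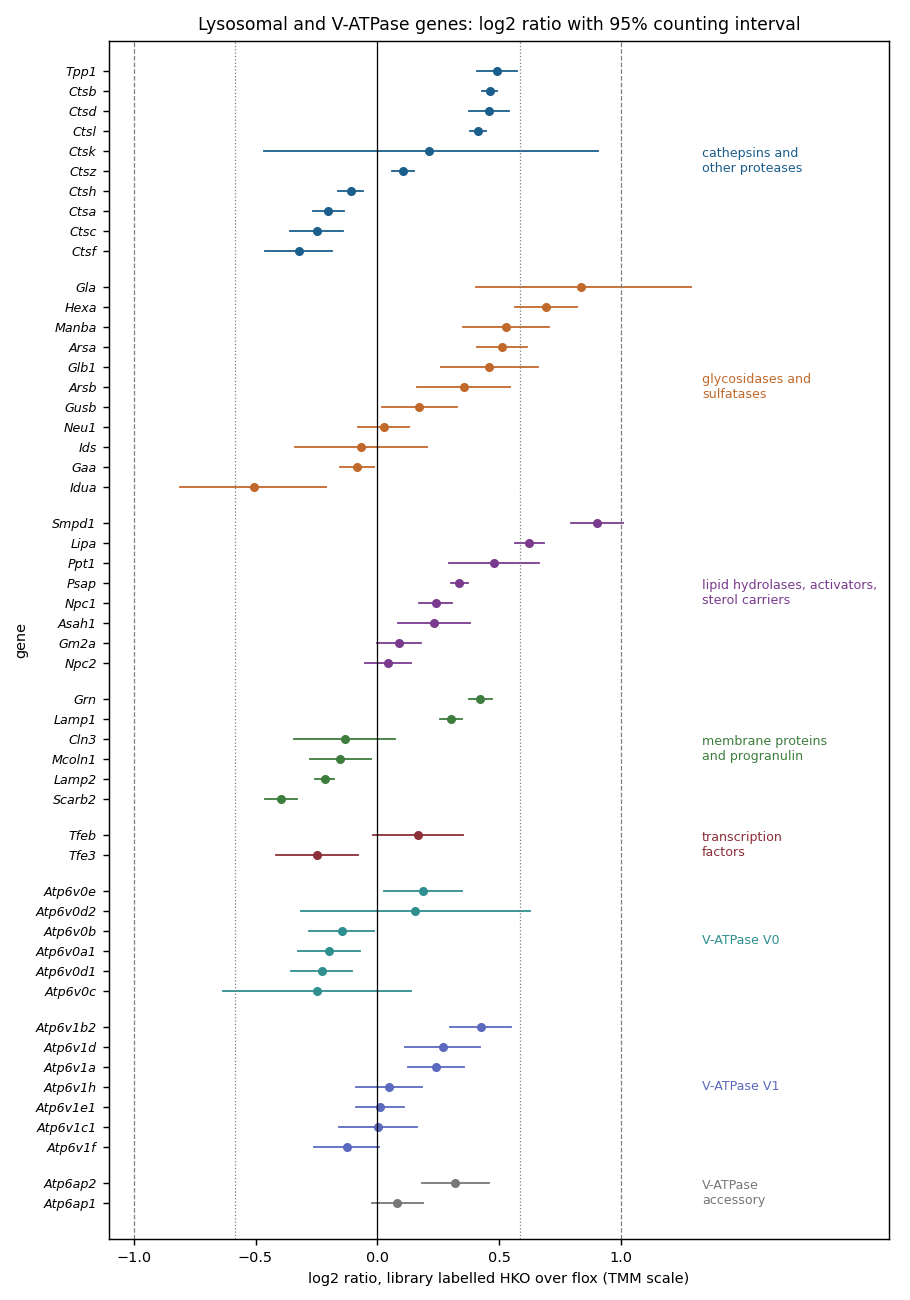
Log2 ratio of each of the 52 genes (x axis, HKO over flox on the TMM scale) by gene (y axis), grouped and coloured by role. Points are ratios, bars are 95% counting intervals, dotted lines mark 1.5-fold and dashed lines 2-fold. Smpd1, Gla, Hexa and Lipa lie to the right of the 1.5-fold line, and no point reaches 2-fold.

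**Figure D2:**
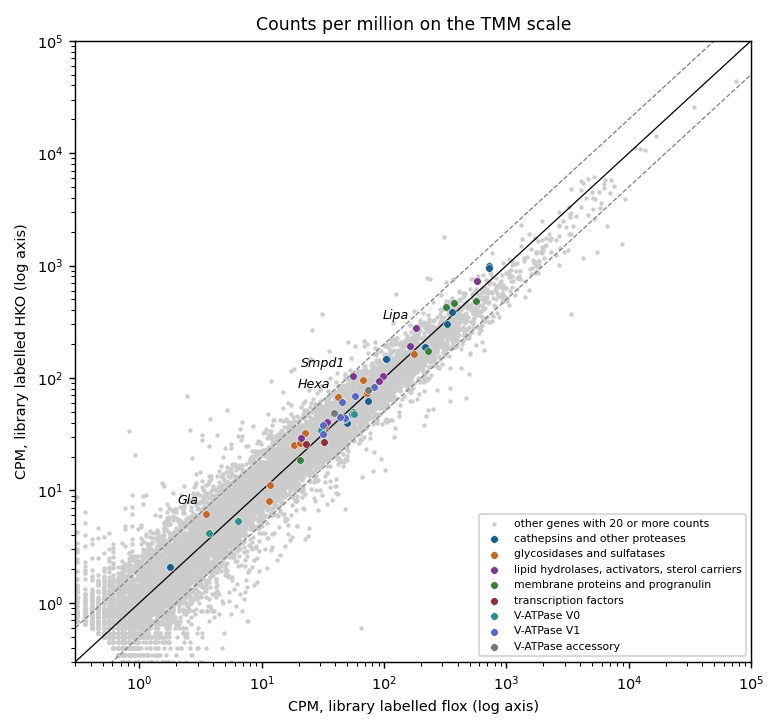
CPM in the library labelled flox (x, log axis) against the library labelled HKO (y, log axis) for genes with 20 or more counts and at least 1 in each library. Grey points are other genes, coloured points the 52 members by role, the solid line is equality and dashed lines are 2-fold. The members lie between the dashed lines, from 1.79 CPM for Ctsk to 722 CPM for Ctsl in the library labelled flox.

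Enzymes and carriers of lysosomal lipid breakdown mostly lay above equality. All 8 did so on the TMM scale, although Npc2 lay at −0.03 with upper-quartile scaling. The TMM median was 0.29, and 6 of the 8 had intervals above equality, against 28.3% of all genes. Smpd1, the acid sphingomyelinase that cuts sphingomyelin to ceramide, lies on chromosome 7 (positions 105554360 to 105558389, plus strand, GRCm38). It had 1085 and 2096 counts, and 55.5 and 104 CPM. This is 1.87-fold higher (1.74 to 2.01), the highest log2 ratio of the members at 0.90, and percentile 92.5 of all genes. Scaled by total counts it is past 2-fold. Lipa, the acid lipase that frees cholesterol and fatty acids from lipoprotein esters, had 3558 and 5669 counts, 1.54-fold higher (1.48 to 1.61). With upper-quartile scaling Lipa had a log2 ratio of 0.55 and fell short of 1.5-fold. These 2 genes share no exonic bases with another annotated gene.

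The neighbours of Smpd1 in the same pathway differed less. Asah1, the acid ceramidase that takes the next step, had 671 and 815 counts, 1.17-fold higher (1.06 to 1.30). Psap, which encodes the saposin activators and was the most abundant gene of the group, had 11237 and 14673 counts, 1.26-fold higher (1.23 to 1.29). Ratios of 1 gene to another within a library do not depend on scaling. There were 1.62 and 2.57 counts of Smpd1 per count of Asah1, a ratio of ratios of 1.59 (1.40 to 1.80). Against Psap the same measure was 1.48 (1.37 to 1.60). Both intervals excluded 1, but these cover counting error only. By that measure 56.0% of all genes had an interval off equality, and no such share was worked out for pairs of genes. In all, 18 such pairs are given, chosen after the values had been seen, and their intervals are not adjusted for that number.

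Cholesterol freed by Lipa leaves the lysosome through Npc2, which carries it in the lumen, and Npc1, which passes it through the membrane. Npc1 had 3168 and 3867 counts, 1.18-fold higher (1.13 to 1.24), and Npc2 had 1777 and 1892, with an interval that included equality (1.03-fold, 0.965 to 1.10). Per count of Npc2 there were 2.0 and 3.0 counts of Lipa, a ratio of ratios of 1.5 (1.39 to 1.62). The palmitoyl thioesterase Ppt1, which removes fatty acids from lipid-modified proteins, was 1.39-fold higher (408 and 588 counts, 1.23 to 1.59). Gm2a, the activator that lifts ganglioside out of the membrane for Hexa, had 1905 and 2093 counts, and its interval also included equality (1.06-fold, 0.998 to 1.13). Counts of Hexa per count of Gm2a were 0.428 and 0.651, a ratio of ratios of 1.52 (1.37 to 1.69).

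Glycosidases and sulfatases, which strip sugars and sulfate from glycans, were split. Of the 11 genes, 7 had intervals above equality and 2 below, against 28.3% and 27.7% of all genes. The median log2 ratio of the 11 was 0.35. Hexa, which encodes a subunit that trims amino sugars from gangliosides, had 815 and 1362 counts, 1.62-fold higher (1.48 to 1.77). Of its exonic bases 12.8% lie within exons of another gene, Tmem202 taking most. Gla, the alpha-galactosidase that is lacking in Fabry disease, had only 68 and 126 counts, 1.79-fold higher (1.32 to 2.44), and is therefore the least precise of the 4 genes past 1.5-fold. Next below the limit came Manba, the beta-mannosidase (442 and 659 counts, 1.44-fold, 1.28 to 1.63), and Arsa, the sulfatase that acts on sulfatide (1326 and 1954, 1.43-fold, 1.33 to 1.53). Glb1, the acid beta-galactosidase, was 1.37-fold higher (358 and 509, 1.20 to 1.58), Arsb 1.28-fold (401 and 530, 1.12 to 1.46) and Gusb 1.13-fold (648 and 755, 1.01 to 1.25). Exons of other annotated genes cover 39.9% of the exonic bases of Arsb, the largest such share of the members, and 18.8% of Arsa.

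On the other side was Idua, the iduronidase that degrades heparan and dermatan sulfate. It had 223 and 162 counts, 1.42-fold lower (1.16 to 1.75), the lowest ratio of all members. Ids, the sulfatase that acts just before it on the same glycans, had 227 and 224 counts, and its interval included equality (1.05-fold lower, 0.867 to 1.27). Gaa, the glycogen-digesting alpha-glucosidase and the gene of this group with the highest level per length, had 3410 and 3327 counts, 1.06-fold lower (1.01 to 1.11) on the TMM scale. Its log2 ratio of −0.08 becomes 0.18 with total counts.

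Neu1, Glb1 and Ctsa encode a sialidase, a galactosidase and a protective carboxypeptidase that form 1 complex in the lysosome, and their transcripts did not share a direction. Neu1 was level, with 1425 and 1500 counts (1.02-fold, 0.946 to 1.10), while Ctsa had 4209 and 3786, 1.15-fold lower (1.10 to 1.20), a log2 ratio of −0.20 that becomes 0.07 with total counts. Glb1 counts per count of Ctsa were 0.0851 and 0.134, a ratio of ratios of 1.58 (1.37 to 1.82). Of the exonic bases of Ctsa, 17.4% lie within exons of another gene, chiefly Pltp.

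The alpha-galactosidase and sphingomyelinase genes, the members with the highest ratios, are shown with the bases around their start sites, since they differ in a motif treated with Tfeb below. The windows run from 250 bases before to 50 after each RefSeq start on GRCm38.p6, and capitals mark CACGTG together with a flanking T before it or A after it.
Gla, chrX:134600956-134601255 (-): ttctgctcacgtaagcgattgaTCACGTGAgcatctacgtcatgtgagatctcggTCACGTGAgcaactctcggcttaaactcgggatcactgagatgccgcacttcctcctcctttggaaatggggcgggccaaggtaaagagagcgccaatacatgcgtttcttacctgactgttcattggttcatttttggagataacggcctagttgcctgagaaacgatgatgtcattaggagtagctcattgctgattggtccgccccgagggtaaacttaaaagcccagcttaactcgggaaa
Smpd1, chr7:105554110-105554409 (+): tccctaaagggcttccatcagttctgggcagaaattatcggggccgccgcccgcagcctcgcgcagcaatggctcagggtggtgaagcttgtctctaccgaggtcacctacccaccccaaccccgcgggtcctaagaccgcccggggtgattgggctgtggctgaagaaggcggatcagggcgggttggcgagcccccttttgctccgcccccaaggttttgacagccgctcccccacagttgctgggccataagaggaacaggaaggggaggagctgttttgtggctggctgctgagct
Gla holds the letters at a pair of places and the Smpd1 window has none. Windows of Hexa and Lipa have none either.

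Proteases fell into genes higher and genes lower on the TMM scale, with Ctsk and Ctsz between at log2 ratios of 0.21 and 0.11. Of 10, Tpp1, Ctsb, Ctsd and Ctsl had log2 ratios from 0.41 to 0.49, and Ctsh, Ctsa, Ctsc and Ctsf from −0.32 to −0.11. The group median was 0.16. Ctsb and Ctsl, cysteine cathepsins that open many proteins to degradation, were the members with the highest counts. Ctsb had 13963 and 19877 counts, or 714 and 983 CPM, 1.38-fold higher (1.35 to 1.41). Ctsl had 14120 and 19432, 1.33-fold higher (1.30 to 1.36). The aspartic protease Ctsd had 2079 and 2954, 1.37-fold higher (1.30 to 1.45), and the tripeptidyl peptidase Tpp1 had 2045 and 2969, 1.40-fold higher (1.33 to 1.49). Exons of other annotated genes cover 34.4% of the exonic bases of Ctsd, 26.8% of Ctsl and 12.8% of Ctsb, but none of Tpp1.

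The 4 lower proteases were close to level. Ctsc, the dipeptidyl peptidase that activates granule proteases of immune cells, had 1456 and 1266 counts, 1.19-fold lower (1.10 to 1.28). Ctsf had 973 and 804, 1.25-fold lower (1.14 to 1.38), and the aminopeptidase Ctsh had 6364 and 6098, 1.08-fold lower (1.04 to 1.12). With total counts the log2 ratio of Ctsh becomes 0.16 and that of Ctsc 0.02, while Ctsf is at −0.06. The contrast within the family does not depend on scaling. Counts of Ctsb per count of Ctsc were 9.59 and 15.7, a ratio of ratios of 1.64 (1.51 to 1.77), and the same measure for Ctsb against Ctsh was 1.49 (1.43 to 1.55). Ctsb and Ctsl moved nearly alike, at 1.03 (1.003 to 1.07).

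Ctsz, a carboxypeptidase, had 7066 and 7858 counts, 1.08-fold higher (1.04 to 1.11). Per length it was the most abundant of the 52 genes in both libraries, with 570 and 763 TPM, a length-scaled share of the library, when merged exons serve as length. With the length of the principal transcript it had 441 TPM in the library labelled flox, still the highest there, ahead of Psap at 380 and Ctsh at 354. By that length Psap, at 593 TPM, came ahead of Ctsz, at 586, in the library labelled HKO. TPM add up to the same total in each library and are not on the TMM scale, so they are used here to compare genes within 1 library. Ctsk, the cathepsin best known from bone-resorbing osteoclasts, was the scarcest member by counts. It had 35 and 42 counts, and its interval of 0.723 to 1.87 leaves its direction undetermined at this depth.

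Of the lysosomal membrane proteins and progranulin, 2 of 6 were higher and 3 lower by counting error, against 28.3% and 27.7% of all genes. The median log2 ratio of the 6 was −0.14 and becomes 0.12 with total counts. Lamp1 and Lamp2 are heavily glycosylated proteins that line the lysosomal membrane, and Lamp2 also takes part in autophagy. Lamp1 had 7294 and 9300 counts, 1.23-fold higher (1.20 to 1.27). Lamp2 had 11048 and 9832 counts, 1.16-fold lower (1.13 to 1.19), a log2 ratio of −0.22 that becomes 0.05 with total counts. Counts of Lamp1 per count of Lamp2 were 0.660 and 0.946, a ratio of ratios of 1.43 (1.38 to 1.49) that no scaling alters.

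Scarb2, a lysosomal membrane protein that also serves as a sorting receptor, had 4442 and 3491 counts, 1.32-fold lower (1.26 to 1.38). Grn, which encodes progranulin, a secreted and lysosomal protein strongly expressed by macrophages, had 6259 and 8667 counts, 1.34-fold higher (1.30 to 1.38). Mcoln1, the calcium channel of the lysosome, had 1082 and 1006 counts, 1.11-fold lower (1.02 to 1.21), and Cln3, a membrane protein lost in Batten disease, 398 and 375 (1.10-fold lower, 0.950 to 1.27). Both cross equality with total counts, at log2 ratios of 0.11 and 0.13.

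None of the 15 V-ATPase genes was past 1.5-fold, against 23.3% of all genes, and 4 of the 29 genes of enzymes, activators and sterol carriers were (13.8%). The median log2 ratio of the pump genes was 0.05, against 0.24 for those 29. There were 6.69 and 7.83 counts of the enzyme genes per count of V-ATPase genes. The ratio of ratios of these sums is 1.17 (1.14 to 1.20), and scaling does not enter it. That interval covers counting error of the sums and not the spread among genes. Of the 85462 and 107887 enzyme counts, Ctsb held 13963 and 19877, Ctsl 14120 and 19432, and Psap 11237 and 14673. Whether enzyme and pump genes differ beyond the spread among genes was not tested.

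The pump has a cytosolic V1 sector, which hydrolyses ATP, and a membrane V0 sector, which conducts protons. Of 7 V1 genes, 3 had intervals above equality and none below, with a median of 0.05. Of 6 V0 genes, 1 was above and 3 below, with a median of −0.17 that becomes 0.095 with total counts. Over all genes 28.3% were above and 27.7% below, and the quartiles of the log2 ratio were −0.31 and 0.37. Both sector medians lie within those quartiles, and whether the sectors differ beyond the spread among genes was not tested. Summed V1 counts per V0 count were 1.71 and 2.03, a ratio of ratios of 1.19 (1.12 to 1.25). The catalytic subunit Atp6v1a had 1140 and 1393 counts, 1.18-fold higher (1.09 to 1.28). Atp6v1b2, its nucleotide-binding partner in the head, had 883 and 1225, 1.34-fold higher (1.23 to 1.46), the highest of the pump. Atp6v1d, in the central stalk, was 1.20-fold higher (620 and 772 counts, 1.08 to 1.34). Intervals of Atp6v1c1, Atp6v1e1, Atp6v1f and Atp6v1h included equality. The lowest of them was Atp6v1f, with 937 and 888 counts and a log2 ratio of −0.13.

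In V0, Atp6v0a1, the subunit that carries the proton channel, had 1066 and 961 counts, 1.15-fold lower (1.05 to 1.25). Atp6v0d1, which links the sectors, had 1105 and 975, 1.17-fold lower (1.07 to 1.28), and Atp6v0b, of the rotor ring, had 943 and 881, 1.11-fold lower (1.01 to 1.21). With total counts these 3 log2 ratios become 0.07, 0.04 and 0.12. Atp6v0e was higher, at 591 and 695 counts (1.14-fold, 1.02 to 1.27). Atp6v0d2, the form of the d subunit known from osteoclasts and macrophages, had 73 and 84 counts, with an interval of 0.804 to 1.54. It made up 0.0661 and 0.0862 counts per count of Atp6v0d1, and the ratio of ratios, 1.30, had an interval that included 1 (0.942 to 1.81).

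Atp6v0c, which encodes the main subunit of the proton-carrying ring, had only 124 and 108 counts, 6.34 and 5.34 CPM, and an interval of 0.645 to 1.10. That was the lowest count of the pump apart from Atp6v0d2. Of its 100-base words, 7.84% occur in another gene, the processed pseudogene Atp6v0c-ps2, which had 50 and 37 counts. How reads that match both places were counted is not stated, so the level of Atp6v0c is uncertain. The accessory proteins, which help assemble the pump, were Atp6ap1 at 1442 and 1578 counts (1.06-fold, 0.985 to 1.14) and Atp6ap2, also known as the prorenin receptor, at 759 and 980 (1.25-fold higher, 1.13 to 1.37).

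**Figure D3:**
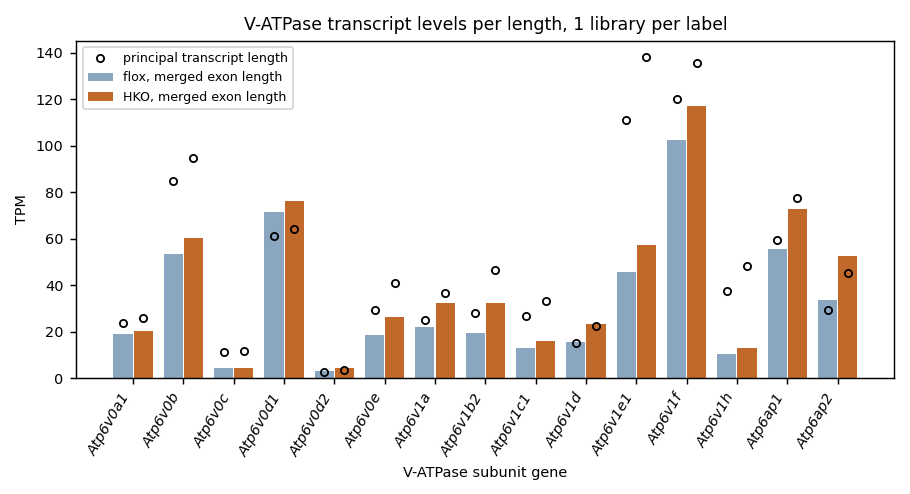
TPM (y axis) of the 15 V-ATPase genes (x axis) in the libraries labelled flox (blue) and HKO (orange), with bars computed from merged exon length and open circles from principal transcript length. Atp6v1f leads by merged length at 102 and 117 TPM, and Atp6v0d2 and Atp6v0c are the lowest. TPM are not TMM-scaled, so bar heights serve to compare genes within a library.

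Tfeb and Tfe3 encode basic helix-loop-helix factors of the MiT family, which enter the nucleus when nutrient signalling at the lysosome falls and switch on lysosomal genes. Tfeb had 450 and 522 counts (1.12-fold, 0.987 to 1.28), with an interval that included equality. Tfe3 had 630 and 549, 1.19-fold lower (1.06 to 1.33), and its log2 ratio of −0.25 becomes 0.02 with total counts. Counts of Tfeb per count of Tfe3 were 0.714 and 0.951, a ratio of ratios of 1.33 (1.12 to 1.58). The activity of these factors depends largely on where in the cell they are, which transcript counts do not measure.

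MiT factors bind E-boxes of the form TCACGTG, so the RefSeq start-site windows, 300 bases long, were searched for it on both strands. A window was found for 44 of the 52 genes, and 13 of the 44 (29.5%) held the letters, against 4.29% of 27025 genes with a window and 6.93% of the 10462 of them tested here. The shorter CACGTG, which every such match also contains, was in 15 of 44 (34.1%) against 8.09% of all and 11.5% of tested genes. The palindrome TCACGTGA, added after the first search, was in 8 of 44 (18.2%) against 1.12% and 2.14%. The motif was picked because these factors act on lysosomal genes. A higher share in a list of such genes is therefore a description and tests nothing. Genes can have more than 1 window (32851 windows for the 27025 genes), and a match in any window counted. These 8 genes are shown, on GRCm38.p6 and along the strand of each gene, because they hold the full palindrome (capitals).
Atp6v0d1, chr8:105566051-105566078 (-): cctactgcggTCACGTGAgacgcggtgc
Atp6v0e, chr17:26676388-26676415 (+): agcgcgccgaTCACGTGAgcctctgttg
Atp6v1a, chr16:44139374-44139401 (-): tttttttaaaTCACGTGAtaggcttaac
Cln3, chr7:126583341-126583368 (-): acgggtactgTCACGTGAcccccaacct
Ctsa, chr2:164833750-164833777 (+): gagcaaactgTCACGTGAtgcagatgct
Ctsa, chr2:164833767-164833794 (+): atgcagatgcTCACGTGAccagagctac
Ctsd, chr7:142387909-142387936 (-): cgcccgcgtcTCACGTGAcccgttgagg
Gla, chrX:134601183-134601210 (-): gagatctcggTCACGTGAgcaactctcg
Gla, chrX:134601216-134601243 (-): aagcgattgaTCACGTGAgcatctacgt
Mcoln1, chr8:3500463-3500490 (+): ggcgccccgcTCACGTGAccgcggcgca
Counted from the start site, the first base of the palindrome was at −195 and −228 in Gla, −99 in Ctsd and −46 in Mcoln1. Ctsa held it on both sides of its start site.

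The ratios of members with and without the letters overlapped, and whether the letters bear on the ratios was not tested. The 13 genes with TCACGTG had a median log2 ratio of 0.19 and ranged from −0.23 to 0.84, and 7 of them were above equality. The 31 without it had a median of 0.11, ranged from −0.51 to 0.90, and 21 were above equality. Of the 4 genes past 1.5-fold only Gla held it. A match says that the letters are there and not that a factor binds, and no match speaks only of these windows.

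Other lysosomal genes were counted by the same limits. Of 27 other hydrolases, 4 were past 2-fold higher and none lower, against 5.74% and 4.66% of all genes. Past 1.5-fold 6 were higher and 1 lower, and the median log2 ratio was 0.21. The 7 past 1.5-fold make up 25.9% of the list, close to the 23.3% of all genes. Among them Galns, a sulfatase for keratan sulfate, had 165 and 401 (2.35-fold, 1.96 to 2.84), the peptidase Dpp7 436 and 1043 (2.31-fold, 2.07 to 2.59) and the phospholipase Pla2g15 321 and 716 (2.16-fold, 1.89 to 2.47). The hyaluronidase Hyal1 was 1.55-fold lower (555 and 370, 1.36 to 1.77).

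Of 17 other membrane proteins with enough counts, 1 was past 2-fold and 3 past 1.5-fold, all higher, with a median of 0.10. Of all genes 5.74% were past 2-fold higher. The 3 past 1.5-fold make up 17.6% of the list, against 23.3% of all genes in either direction. Cd63, a tetraspanin of late endosomes, had 186 and 443 counts (2.30-fold, 1.94 to 2.75). Laptm5, a lysosomal protein of blood cells, had 323 and 511 (1.53-fold, 1.33 to 1.76). No gene among 10 other V-ATPase subunits and assembly factors was past 1.5-fold, as in the 15 members, and their median was −0.08. That list includes Tcirg1, the a subunit of osteoclasts and immune cells, at 1508 and 1518 counts.

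Of 10 genes for delivery to the lysosome, Sort1, a sorting receptor that in hepatocytes also handles lipoproteins, was the one past 2-fold. It had 562 and 250 counts, 2.32-fold lower (2.0 to 2.71). Gnptab, which starts the mannose 6-phosphate tag, was 1.58-fold higher (193 and 315, 1.32 to 1.90), and the list median was 0.11. Of 15 MiT family and nutrient sensing genes only Rragd, a Rag GTPase, was past 1.5-fold, with 43 and 68 counts (1.52-fold, 1.03 to 2.30), and the median was −0.04. Over these 5 lists, 5 of 79 genes were past 2-fold higher and 1 lower, against 5.74% and 4.66% of all genes. Past 1.5-fold 11 were higher and 2 lower (16.5%), against 23.3% of all genes in either direction.

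Lysosomal genes are expressed in hepatocytes and in macrophages, and the libraries differed in markers of both. All 16 Kupffer cell and macrophage markers had a ratio above equality, beside 7328 of 14433 genes in all. Past 1.5-fold higher there were 9, against 13.0% of all genes. The median log2 ratio of the 16 markers was 0.80. Their summed level was 661 and 1028 CPM, and none was at 0. Marco was 2.87-fold higher (178 and 530 counts, 2.43 to 3.43), Cd68, itself a lysosomal glycoprotein, 2.43-fold (160 and 402, 2.02 to 2.94), Fcgr1 2.41-fold (43 and 108, 1.69 to 3.55) and Mpeg1 2.25-fold (938 and 2184, 2.09 to 2.43). Clec4f, which defines resident Kupffer cells in mouse, had 2260 and 2851 counts and a log2 ratio of 0.29. All 10 markers for macrophages derived from monocytes or associated with lipid were above equality as well. Of these 10, 8 were past 1.5-fold higher, against 13.0% of all genes, and the summed levels were 51.3 and 93.7 CPM. Most of that sum came from Spp1 (456 and 653 counts), Cd9 (286 and 554) and Fabp4 (192 and 215). Spp1 is also in the bile duct list below, and the interval of Fabp4 included equality. Gpnmb had 6 and 69 counts (10.3-fold, 4.86 to 31.4), Mmp12 17 and 183 (10.1-fold, 6.33 to 18.3) and Trem2 10 and 56 (5.20-fold, 2.74 to 11.9). Ly6c2 had 2 and 23 (9.09-fold, 2.75 to 97.3). In this list, genes with at least 100 counts had a median of 0.69, against 2.04 with the floor of 20.

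Hepatocyte markers stood on the other side. All 10 had a ratio below equality, beside 7105 of 14433 genes in all, and 6 were past 1.5-fold lower, against 10.3%. The median of these 10 markers was −0.65, and their summed levels were 112995 and 73562 CPM. With total counts the median becomes −0.38 and Apoa1 alone is above equality. Serpina1c was 1.87-fold lower (7071 and 3915 counts, 1.80 to 1.94), Tat 1.79-fold (112975 and 65407, 1.77 to 1.80), Hnf4a 1.71-fold (21602 and 13071, 1.67 to 1.75) and Alb 1.70-fold (1460053 and 886277, 1.70 to 1.71). In bulk tissue, fewer cells of a type and less RNA per cell cannot be told apart. The part that these marker differences have in the ratios of the 52 genes was not tested. Of the members linked to macrophages or osteoclasts above, Grn was higher, while Ctsk and Atp6v0d2 had intervals that included equality. Counts of Ctsk (35 and 42) and Atp6v0d2 (73 and 84) were low, so their intervals are wide. The other members were not sorted by cell type, and these genes do not speak for them. In the list of other hydrolases the cathepsin of antigen-presenting cells, Ctss, had 574 and 1186 counts, a log2 ratio of 1.00 just short of 2-fold.

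Markers of other cell types were mixed in direction. Beside the counts below, 13.0% of all genes were past 1.5-fold higher, 10.3% lower and 23.3% in either direction. None of 8 endothelial markers was past 1.5-fold (median −0.16, or 0.11 with total counts, summed 432 and 363 CPM). Of 8 stellate cell and fibroblast markers 3 were past 1.5-fold higher and 1 lower, namely Lrat at 296 and 654 counts, Col1a1 at 198 and 365, Dcn at 2186 and 3552, and Des at 375 and 162. Of 5 bile duct markers 1 was higher and 2 lower, Sox9 at 94 and 404, Krt19 at 731 and 165 and Krt7 at 100 and 38. T and NK cell, B and plasma cell, and neutrophil markers summed to at most 5.64 CPM a list in either library, with Csf3r, a neutrophil gene at 39 and 67 counts, the one past 1.5-fold. The neutrophil genes Ly6g, Elane and Mpo were at 0 in both.

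**Figure D4:**
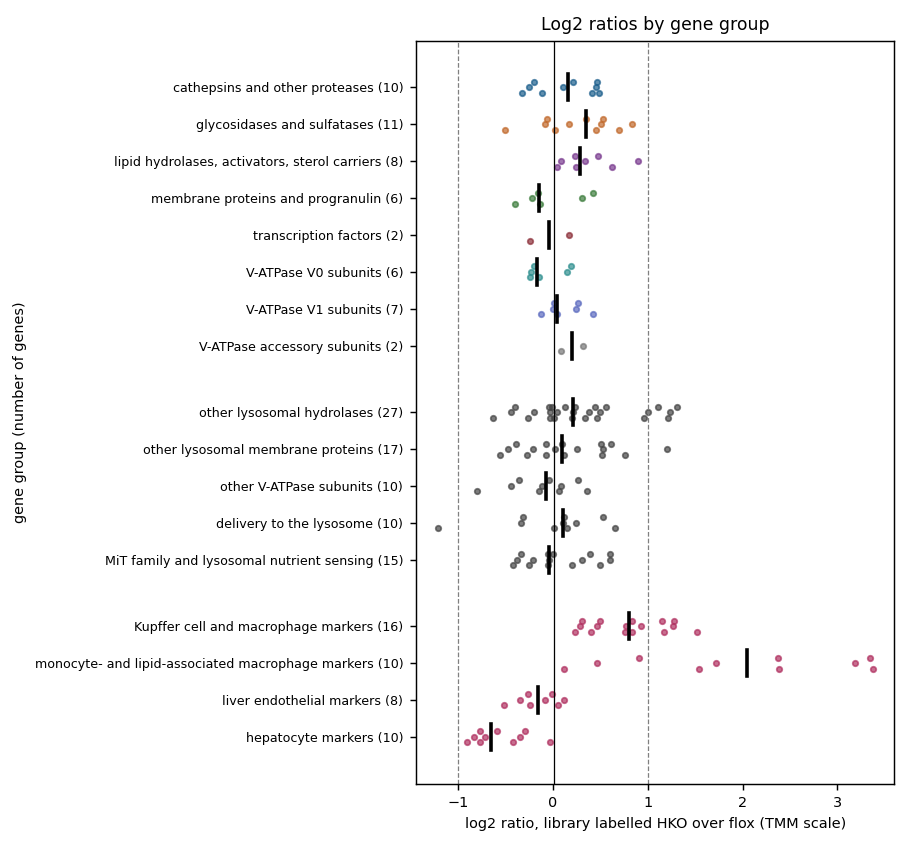
Log2 ratio (x axis, HKO over flox, TMM scale) of each gene with 20 or more counts, by gene group (y axis, number of genes in brackets). Coloured points are the 52 members by role, dark points the other pathway lists, red points cell type markers, thick bars group medians, the solid line the median of all genes and dashed lines 2-fold. The members lie within 2-fold, macrophage markers lie to the right (medians 0.80 and 2.04, the second 0.69 for genes with at least 100 counts) and hepatocyte markers to the left (median −0.65).

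**Figure D5:**
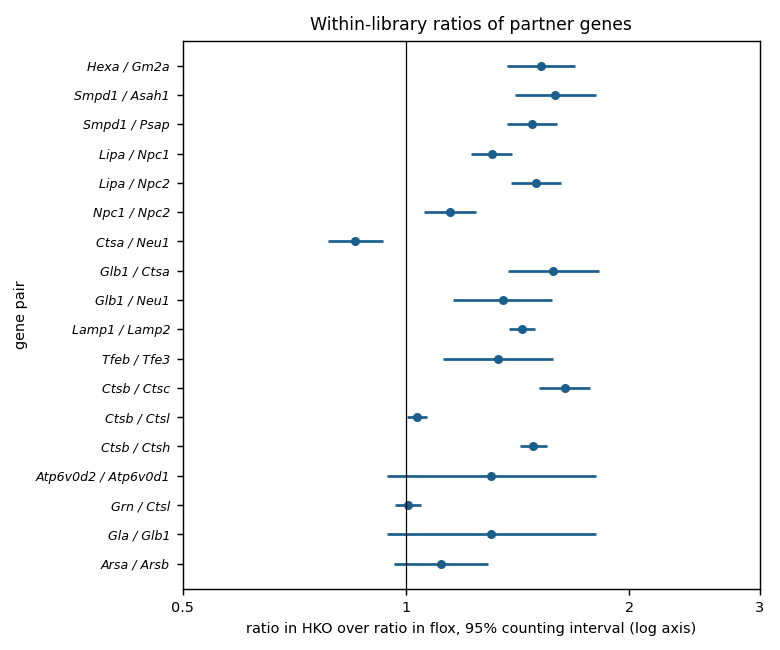
Ratio of 1 gene to its partner in the library labelled HKO, divided by the same ratio in the library labelled flox (x, log axis), for 18 pairs (y axis). Points are ratios of ratios, bars 95% counting intervals, and the line marks no difference. Ctsb against Ctsc lies furthest right at 1.64, and Ctsa against Neu1 furthest left at 0.855.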

How the data were processed

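Per the labels and methods, each library came from liver RNA pooled over 4 mice and was read as paired ends. The deposited values are counts per gene, which the authors made before submission and did not normalise. The submitters' processing notes name TopHat2, HTSeq 0.6.1 and GRCm38, whereas the methods name Hisat2 with another HTSeq version. Which made the files is not given in the sources used here, nor is the strand setting. No source mentions molecular identifiers, so duplicate reads could not be told apart and the intervals count each read as independent. These intervals cover counting error only, since each genotype has 1 library, and are a lower bound on the uncertainty.

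Symbols and positions came from GENCODE M21 (GRCm38), which matched 52489 of 52636 identifiers. Unannotated loci, 311 in all with 0.328% (flox) and 0.261% (HKO) of the counts, were left out. With 1 library per genotype no test was run. Ratios used TMM factors from edgeR 4.0.16 and a prior of 0.5 counts, with exact binomial 95% intervals. One count was worth 0.0511 and 0.0494 CPM. Intervals of pairs come from the log odds ratio of 4 counts. The ratio, its interval and the 2-fold call were tested on simulated counts that held counting error only. Other steps were not tested in that way. DESeq2 1.42.0 gave size factors only. Members, roles and lists were chosen with earlier results of these data known. The rule for named genes took Mettl3, Tfeb, Tfe3, members past 1.5-fold, in each role the member with the highest TPM and those with the highest and lowest ratio, and up to 4 genes past 1.5-fold with the largest ratios in each other list. Some genes that the rule takes from the other lists are counted there and not reported here by name. The other members, Tcirg1, Clec4f, Ctss, Apoa1 and the neutrophil genes were named after their values had been seen, as were the pairs. The floor of 1000 counts, principal transcript length, the palindrome and centring by length or abundance were added after the data were seen. Other alternatives covered scaling, count floor, prior, gene type, overlap and mean. Calculations used Python 3.11.15, SciPy 1.17.1 and R 4.3.3. Start-site sequences are from RefSeq.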

Additional observations from a re-analysis of the deposited data

How the results depend on the processing

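No paired analysis was possible because each genotype has 1 library, and leaving out a replicate was not possible for the same reason. Scaling was the choice that mattered. With total counts, 2 members were past 2-fold higher and 17 past 1.5-fold higher, and the median log2 ratio of the members was 0.43, beside 0.28 for all genes. Role medians were then 0.43 for proteases, 0.62 for glycosidases and sulfatases, 0.55 for lipid enzymes and carriers, 0.12 for membrane proteins and progranulin, 0.23 for transcription factors, 0.095 for V0, 0.31 for V1 and 0.47 for accessory subunits. In all, 14 of the 52 changed sign and 49 were above equality. Higher calls made up 82.7% of all genes past 1.5-fold with total counts and 55.7% with TMM. Upper-quartile scaling lowered the log2 ratios by 0.08, left 3 members past 1.5-fold and gave medians of 0.082 for proteases and −0.22 for membrane proteins and progranulin. Size factors of DESeq2 changed no count of members past a limit. The same held for a prior of 2 counts, floors of 1 and 100 counts and protein-coding genes only. A floor of 1000 counts, added after the data were seen, left out Gla and gave 3. The median was 0.085 over the 34 members that share no exonic bases with another gene, and 0.16 and 0.17 after centring on genes of like length or abundance, also added later. Depth limits the scarcest members, Ctsk, Gla and Atp6v0d2, most.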
